A study of Mus musculus with 18 samples.

Results

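The genes described are the 8 interferon regulatory factors Irf1, Irf2, Irf3, Irf4, Irf5, Irf7, Irf8 and Irf9. They were found by gene symbol among the 22909 genes, on 28856 transcript clusters, of a Mouse Gene 1.0 ST array table. A transcript cluster is the set of array probes that stands for a gene. Irf1 had 2 clusters and was read from the brighter, and each of the other genes had 1. Glomerular cells came from mice at 5 weeks of age, either Cd2ap-/- mutants (the strain B6.129X1-Cd2ap tm1Shaw/J) or wild type. Cd2ap encodes an adaptor protein of the podocyte slit diaphragm. Each cell type was marked by a GFP reporter of its own, Meis1-GFP in mesangial and Tie2-GFP in endothelial cells, in mutants and wild type alike, and GFP-positive cells were sorted from sieved, dissociated glomeruli. Since each cell type had a reporter strain of its own, cell type and strain cannot be told apart. The 6 groups held 3 arrays each, described as biological triplicates and called here arrays A, B and C of a group. The mesangial wild type animals are also labelled control, and their array names carry a plus and a minus sign, so that they may have been heterozygous.

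Interferon regulatory factors are DNA-binding proteins that switch interferon genes and interferon-stimulated genes on or off. Irf3 and Irf7 are activated by kinases downstream of nucleic acid sensors and drive type I interferon genes, and Irf7 is itself an interferon-stimulated gene. Irf9 is the DNA-binding subunit of the complex ISGF3, which also holds Stat2 and carries the type I interferon signal to the nucleus. Irf1 is induced by interferon gamma, and Irf2 is known as its antagonist at shared sites. Irf4 and Irf8 are best known from lymphoid and myeloid cells, and Irf5 from macrophages and dendritic cells.

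Promoter sequence is shown for Irf7 and Irf9, whose signal rose in mutant endothelial cells, and for Irf1 and Irf2, which held matches to interferon response motifs. The stretches are the 250 bases before the RefSeq transcript start in GRCm38.p6, written 5′ to 3′ on the strand of the gene, with motif matches in capitals. They lie at chr7:141266425-141266674 (minus strand) for Irf7, chr14:55603735-55603984 (plus strand) for Irf9, chr11:53769764-53770013 (plus strand) for Irf1 and chr8:46739495-46739744 (plus strand) for Irf2.
Irf7: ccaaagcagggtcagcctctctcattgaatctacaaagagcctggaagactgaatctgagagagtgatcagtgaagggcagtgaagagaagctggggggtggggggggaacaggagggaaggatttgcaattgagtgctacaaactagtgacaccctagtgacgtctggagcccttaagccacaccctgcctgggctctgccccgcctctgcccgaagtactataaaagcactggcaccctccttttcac
Irf9: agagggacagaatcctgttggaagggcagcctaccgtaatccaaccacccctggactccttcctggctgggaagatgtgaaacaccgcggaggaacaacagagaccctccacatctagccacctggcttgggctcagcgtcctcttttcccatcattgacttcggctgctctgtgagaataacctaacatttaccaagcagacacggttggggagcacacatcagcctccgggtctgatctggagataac
Irf1: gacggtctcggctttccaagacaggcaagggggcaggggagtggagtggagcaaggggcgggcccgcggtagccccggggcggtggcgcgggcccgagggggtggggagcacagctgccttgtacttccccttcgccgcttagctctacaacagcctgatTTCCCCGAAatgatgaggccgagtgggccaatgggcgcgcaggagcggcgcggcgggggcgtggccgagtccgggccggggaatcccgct
Irf2: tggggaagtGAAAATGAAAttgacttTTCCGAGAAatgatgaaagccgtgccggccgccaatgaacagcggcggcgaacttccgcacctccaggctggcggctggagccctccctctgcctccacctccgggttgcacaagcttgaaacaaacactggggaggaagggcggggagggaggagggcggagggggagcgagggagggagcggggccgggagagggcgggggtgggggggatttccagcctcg
Both strands were searched for the core of the interferon-stimulated response element, which is GAAA, any 2 bases and GAAA again, and for the gamma-activated site, TTCNNNGAA, whose fixed letters read the same on both strands. The windows of 300 bases ran from 250 before to 50 after each start, and the 8 genes had 11 of them. The response element core was found in 3.44% and the gamma-activated site in 8.30% of all 32851 RefSeq windows. Irf2 held the core as GAAAATGAAA, from base -241 to -232 of its start, and the gamma-activated site as TTCCGAGAA, from -224 to -216. Irf1 held a gamma-activated site, TTCCCCGAA, from -90 to -82 of its upstream start. The upstream window of Irf8 held 2, TTCTCGGAA from -171 to -163 and TTCAGAGAA from -153 to -145. The windows of Irf3, Irf4, Irf5, Irf7 and Irf9 held neither string of letters, which says only that these letters are not in these windows.

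The labels were checked against cell type markers. Summed signals of 7 podocyte markers were 10698 to 13370 on podocyte arrays, and those of 8 endothelial markers 15671 to 18197 on endothelial arrays. The 7 mesangial markers summed to 8096 to 11580 on mesangial arrays. Endothelial markers also summed to 4434 to 5877 on wild type and 778 to 2668 on mutant podocyte arrays, and mesangial markers to 3476 to 4355 and 1022 to 3330. The podocyte arrays thus carried marker signal of both other cell types, and less of it in mutants. Wild type mesangial array C carried endothelial signal (Kdr 935). Mutant mesangial array B carried leukocyte signal (Tyrobp 1261, Ptprc 361), from cells in which Irf8 is known to be high. Called differences of the genes described that involve these 2 arrays are also given without them. Cd2ap itself measured 829 ± 37.6 in mutant against 1027 ± 101 in wild type mesangial cells, 1498 ± 17.6 against 1775 ± 295 in podocytes and 926 ± 37.5 against 818.5 ± 53.9 in endothelial cells (SD, n = 3 each). None of these differences was called, the array probes need not lie in the deleted part, and the direction in endothelial cells rests on the labels. Mutant values of Cd2ap lay wholly below wild type values in mesangial cells and in podocytes. In endothelial cells they lay wholly above, at 891.4 to 965.8 against 757.2 to 858.5.

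In mutant endothelial cells Irf7 and Irf9 rose, and Irf7 had the lowest p-value of all 11330 transcript clusters tested. Irf7 signal was 88.3, 84.2 and 82.1 on the wild type arrays and 522, 440.4 and 480.1 on the mutant arrays. The 3 mutant values stood far above the 3 wild type values. A cluster had to reach a signal of 100 on at least 1 array of a comparison to be tested, and Irf7 did so through its mutant arrays alone. The difference was 2.50 on the log2 scale (SE 0.10, 95% interval 2.28 to 2.72, 5.65-fold, adjusted p = 7.53e-05, limma), and with no such minimum the adjusted p was 0.000529. It ranked 4 of 11330 by size of increase. In all sentences an adjusted p is the Benjamini-Hochberg value over every cluster tested, and a gene is called when it is below 0.05.

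Irf9 signal, in the same cells, was 167, 175 and 174 on wild type and 336, 305 and 262 on mutant arrays, again with no overlap. The difference was 0.80 on the log2 scale (SE 0.11, 95% interval 0.55 to 1.05, 1.74-fold, adjusted p = 0.0150). It ranked 71 of 11330 by p-value. That call was lost, with adjusted p of 0.0587 to 0.0774, when wild type array B, wild type array C or mutant array A was left out, with log2 differences of 0.72 to 0.81. Leaving out any array kept the call for Irf7 (2.44 to 2.56).

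Irf1 measured 171, 148 and 136 on wild type and 215, 275 and 205 on mutant endothelial arrays. These groups did not overlap, but the difference of 0.60 (SE 0.14, 1.52-fold, adjusted p = 0.0923) was not called. It passed only the screen of the study's methods, an unadjusted p below 0.05 with a fold change over 1.5. The second Irf1 cluster gave 109, 119 and 128 against 121, 145 and 163, which overlapped, with a difference of 0.26 (adjusted p = 0.319). Neither Irf1 cluster was called.

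The other genes differed less between endothelial genotypes. Irf2 measured 792, 696 and 559.7 on wild type and 807, 828 and 724 on mutant arrays, a difference of 0.22 (95% interval -0.10 to 0.54, adjusted p = 0.425). Irf3, at 145, 125 and 143 against 152, 147 and 134, differed by 0.07 (-0.17 to 0.30, adjusted p = 0.750). Irf8, at 117, 92.8 and 96.2 against 106, 131 and 107, differed by 0.17 (-0.13 to 0.47, adjusted p = 0.499). In each of these genes the groups overlapped, and the intervals held values of both signs.

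Irf4 and Irf5 did not reach 100 on any array. Of the 6 genes tested in endothelial cells, 2 were called higher and none lower, where 1.21% of all clusters were called higher. The screen took 3 genes, Irf1 included, against 2.96% of all clusters. Mutant values lay wholly above wild type values for these 3, as they did for 17.7% of all clusters. All 6 differences were positive, and the median over all clusters was 0.07.

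**Figure D1:**
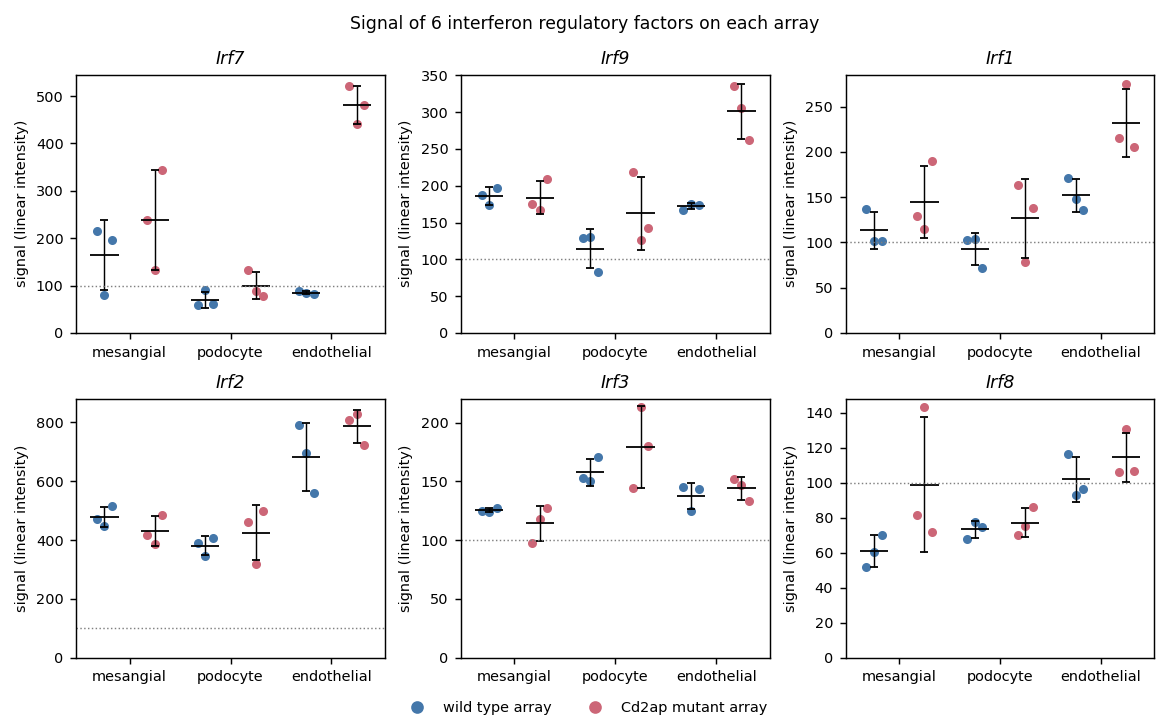
Signal on a linear intensity scale of the 6 interferon regulatory factors that reached 100 on at least 1 array, by cell type. Points are single arrays (blue wild type, red Cd2ap mutant), horizontal lines with bars are means ± SD (n = 3), and the dotted line marks a signal of 100. Irf7 on mutant endothelial arrays (440.4 to 522) stands above all of its wild type arrays.

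Leukocyte markers differed in part between the endothelial genotypes, with none called. The 12 macrophage and myeloid markers summed to 741 to 939 on wild type and 861 to 1583 on mutant endothelial arrays, and array A of the mutants was highest (Tyrobp 475, Lyz2 202). Of the 12, 6 were tested, and Ptprc, Cd68, Lyz2 and Cd14 among these reached 100 on mutant arrays only. The screen took Cd14 (66.7 to 130.2, difference 0.92, adjusted p = 0.0863), whose groups did not overlap. Emr1 and Itgam stayed at or below 40.3 on the endothelial arrays, as they did at 33.9 and 33.7 on mutant mesangial array B. None of the 10 lymphoid and plasmacytoid dendritic markers reached 100 on an endothelial array. Without mutant array A the Irf7 difference was 2.44 (adjusted p = 0.00119), and the Irf9 difference was 0.72 (adjusted p = 0.0587). The part of leukocyte RNA in these values was not tested. In sorted bulk samples, a change in the mix of cells and a change of RNA per cell cannot be told apart.

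Genes around the interferon regulatory factors were read from lists of the pathway. The lists were chosen with earlier results of these data known, so their direction in endothelial cells is no independent evidence. Among 28 interferon-stimulated targets, 25 were tested in endothelial cells, and 16 were called higher and 0 lower, where 1.21% of all clusters were called higher, with a median difference of 1.33 against 0.07 over all clusters. The largest were Ifit3 (364 to 1871, difference 2.36, adjusted p = 0.00112), Ifit1 (2.13), Gbp3 (1.82), Rsad2 (1.79) and Ifit2 (1.72). Of the 25 differences, 23 were positive. Ifi27l1 (-0.44) and Nlrc5 (-0.33) were lower in mutants without overlap of the groups, and neither was called. Left out singly, wild type array C or mutant array A brought the 16 down to 10, and over all arrays the count ran from 10 to 18.

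Stat2, which is held with Irf9 in ISGF3, was also called higher in mutant endothelial cells. Of 11 receptor and JAK-STAT genes tested, 3 were called higher and 0 lower, against 1.21% of all clusters called higher. Among them were Stat2 (194 to 408, difference 1.07, adjusted p = 0.0149) and Usp18, a negative regulator of receptor signaling (108 to 277, difference 1.34, adjusted p = 0.00834). The receptor genes Ifnar1 (0.24), Ifnar2 (0.24), Ifngr1 (0.21) and Ifngr2 (0.09) were not called. The count was 1 without wild type array B, without wild type array C or without mutant array A.

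Upstream of Irf3 and Irf7, 5 of 12 tested sensors, adaptors and kinases were called higher and 0 lower, against the same 1.21%. These were the nucleic acid sensor Zbp1 (66.6 to 244, difference 1.84) and the RNA helicase Dhx58 (0.96), with Ifih1 (0.92), Ddx58 (0.74) and the RNA receptor Tlr3 (0.48, adjusted p = 0.0496). All are nucleic acid sensors or their regulators. Whether the increases of these genes, or of Stat2 and Usp18, are separate from those of the interferon-stimulated targets was not tested. Zbp1 (62.9 to 68.5 on wild type arrays) and Dhx58 (above 100 on mutant array A alone, at 111) passed the signal minimum only through mutant arrays. The kinase Tbk1 (0.28, adjusted p = 0.211) and the adaptor Mavs (0.31, adjusted p = 0.189) were not called. The count of 5 fell to 2 without wild type array C or mutant array A and to 3 without wild type array B. None of the 8 partners and cofactors tested was called (8 of 13 listed, with Ep300 at 0.31 and Rela at 0.12), nor either interferon ligand tested (Il28a and Il28b, 2 of 7 listed). The other 5 ligands stayed under 100 on every endothelial array.

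**Figure D2:**
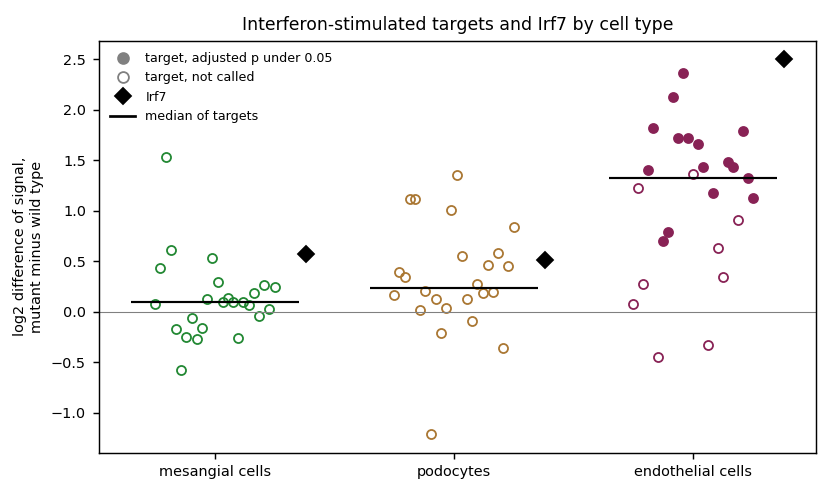
Difference between mutant and wild type (log2 of signal, vertical axis) for each interferon-stimulated target tested, by cell type, with Irf7 as a diamond. Filled circles are targets with adjusted p under 0.05 and lines are medians, which were 0.10 in mesangial cells, 0.24 in podocytes and 1.33 in endothelial cells.

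In mutant podocytes none of the 5 genes tested was called by limma, where 0.0578% of all clusters were, and none had an unadjusted p below 0.05 on the cluster it was read from, where 14.3% of all clusters did. All 5 differences were positive, while the median over all clusters was -0.04. Irf7 measured 58.0, 89.8 and 60.4 on wild type and 132, 87.4 and 78.6 on mutant arrays (difference 0.51, 95% interval -0.06 to 1.08, adjusted p = 0.389). Irf9 measured 129, 131 and 83.4 against 219, 126 and 143 (0.50, -0.11 to 1.10, adjusted p = 0.425). For both genes the groups overlapped, and mutant array A was the highest of the 6.

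Irf1 showed the same array on top, at 103, 103 and 71.8 against 163, 78.3 and 138 (difference 0.40, adjusted p = 0.546). Its second cluster gave 94.6, 93.9 and 81.5 against 113, 176 and 106, which did not overlap, with a difference of 0.51 (unadjusted p = 0.0395, adjusted p = 0.329, limma). Irf2 (0.14, 95% interval -0.30 to 0.58) and Irf3 (0.17, -0.22 to 0.56) had intervals on both sides of 0. Irf8 stayed between 68.1 and 86.4 on all podocyte arrays and was not tested.

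Mutant podocyte array A was also the highest of its group in several targets and in markers of other cells. Ifit3 was 1053 there against 224 and 117 on mutant arrays B and C, and Isg15 was 293 against 129.7 and 78.5. Its endothelial markers summed to 2668, the highest of the mutant podocyte arrays, but below the 4434 to 5877 of the wild type. Mesangial markers summed to 3330 on it, 3006 on array B and 1022 on array C. Macrophage and myeloid markers summed to 1244, 799.7 and 835 on arrays A, B and C, and to 881 to 1317 on wild type arrays. Array A was also the highest mutant podocyte array in Hbb-b1, a globin of red cells (3808 against 432.5 and 70.9). Without it Irf9 differed by 0.26 and Irf1 by 0.19, and Irf7 no longer reached 100 on any array. None of the 24 targets tested in podocytes was called by adjusted p, against 0.0578% of all clusters. The screen took 3, against 5.61% of all clusters, which were Irgm1 (1.36), Gbp2 (1.12) and Tap1 (0.84), named here after their values were seen. The part of RNA from other cells in these podocyte values was not tested.

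In mutant mesangial cells none of the 6 genes tested was called by limma, where 2.92% of all clusters were. The mesangial wild type animals may have been heterozygous, which holds for all mesangial genotype differences given here. With an unadjusted p below 0.05 there was 1, Irf8, beside the second cluster of Irf1, where 21.7% of all clusters had one. Irf7 had the widest spread of the 6, at 216, 79.5 and 196 on wild type and 238, 134 and 344 on mutant arrays (difference 0.57, 95% interval -0.55 to 1.69, adjusted p = 0.531). The spread within a genotype was larger than the difference between genotypes. With single arrays left out the difference ran from 0.11, without wild type array B, to 0.93, without mutant array B, and it was 1.13 (adjusted p = 0.359) without wild type array C and mutant array B together. It was 0.25 without mutant array C. Irf7 was lowest on array B of each genotype, as were 19 of the 24 targets tested. Among these was Ifit1, with 584, 294 and 459 on wild type and 399, 229.7 and 492 on mutant arrays. The share of all clusters lowest on both of these arrays is not given, so no excess among targets is read from this count.

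Irf9 differed by -0.02 (188, 174 and 198 against 176, 167 and 209.6, 95% interval -0.29 to 0.25), Irf2 by -0.16 and Irf3 by -0.14. Irf1 measured 137, 102 and 101 against 129, 115 and 189.7 (difference 0.33, adjusted p = 0.412). The second Irf1 cluster gave 92.4, 78.8 and 77.1 against 124, 101 and 124, with a difference of 0.49 (unadjusted p = 0.00499, adjusted p = 0.0843, limma). These groups did not overlap, but neither cluster was called. The second cluster reached 100 on mutant arrays only, in mesangial cells as in podocytes.

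Irf8 was the only one of the genes that passed the screen in mesangial cells, as 5.19% of all clusters did. It measured 52.1, 60.5 and 70.1 on wild type and 81.5, 143 and 72 on mutant arrays, with a difference of 0.64 (SE 0.26, adjusted p = 0.220). The groups did not overlap, which held for 28.6% of all clusters. Mutant array B, the sole mesangial array with Irf8 above 100, was also the array with the highest sum of myeloid markers (2425 against 753 to 1713) and the highest signal of 7 of the 12. Lyz2 (216) and Csf1r (58.3) were instead highest on wild type array C and Cd14 (155) on wild type array B. On mutant array B Tyrobp was 1261, Ptprc 361 and Siglech, a marker of plasmacytoid dendritic cells, 196. On the other 5 mesangial arrays Siglech was 46.5 to 71.1 and Tyrobp 69 to 523. Without array B, Irf8 did not reach 100 on any mesangial array and could not be tested. The part of leukocyte RNA in the Irf8 value was not tested.

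**Figure D3:**
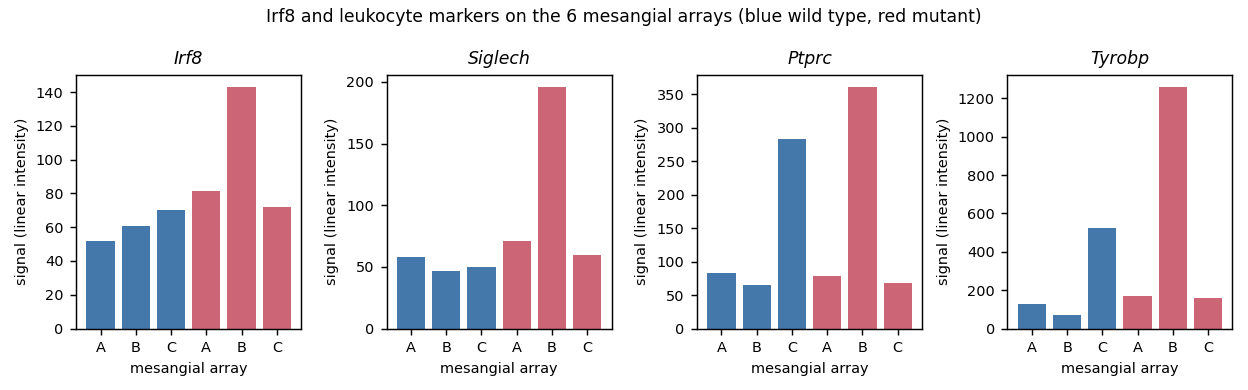
Signal (linear intensity, vertical axes from 0) of Irf8 and of the leukocyte markers Siglech, Ptprc and Tyrobp on the 6 mesangial arrays, with wild type arrays A to C in blue and mutant arrays A to C in red. Mutant array B is the highest in these 4 panels, with Irf8 at 143 and Siglech at 196, while other myeloid markers, such as Lyz2, peak on other arrays.

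Few genes of the pathway lists were called in mesangial cells. None of the 24 targets tested was called, against 2.92% of all clusters, and the screen, which took 5.19% of all clusters, took Cxcl10, a chemokine named here after its values were seen (197 to 584.5, difference 1.53, adjusted p = 0.0949). Of 11 receptor and JAK-STAT genes, Ifngr1 (0.60, adjusted p = 0.0404) and Stat3 (0.49, adjusted p = 0.0418) were called higher, and of 11 sensors and adaptors Tlr4 (0.50, adjusted p = 0.0425). Each of these 3 calls was lost whenever any single mesangial array was left out. Ifngr1 went the other way in podocytes (-0.94, adjusted p = 0.100), and the difference between these 2 effects was -1.54 (adjusted p = 9.65e-05). It was -1.57 (adjusted p = 0.000536) without wild type mesangial array C and mutant mesangial array B. If the mesangial wild type animals were heterozygous, the 2 effects are not matched in control genotype.

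**Figure D4:**
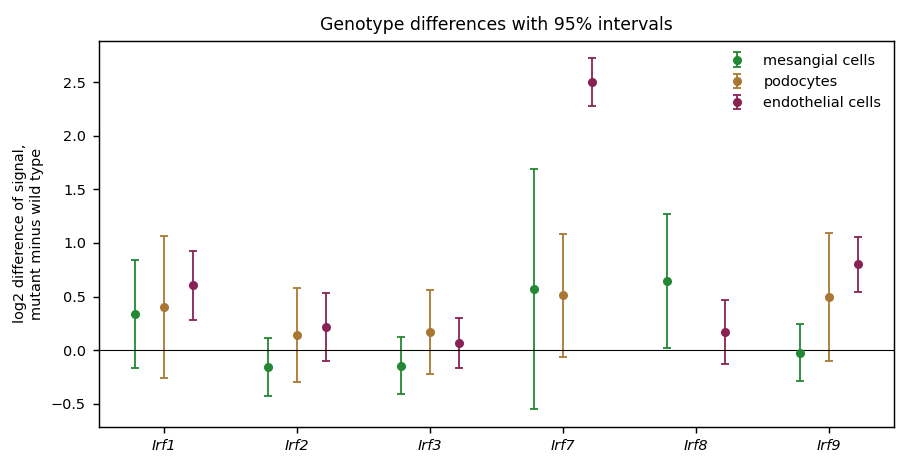
Mutant minus wild type difference (log2 of signal, vertical axis) of each gene tested, with 95% intervals from limma, for mesangial cells, podocytes and endothelial cells. Only the endothelial intervals of Irf7 (2.28 to 2.72), Irf9 (0.55 to 1.05) and Irf1 (0.28 to 0.93) and the mesangial interval of Irf8 (0.02 to 1.27) lie wholly above 0.

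Whether the effect of the mutation differed between cell types was tested over all 18 arrays. If the mesangial wild type animals were heterozygous, the mesangial effect is measured against another genotype than the podocyte and endothelial effects. In contrasts with mesangial cells, cell type and control genotype could then not be told apart. The Irf7 effect was larger in endothelial cells than in podocytes by 1.99 on the log2 scale (SE 0.50, 95% interval 0.94 to 3.04, adjusted p = 0.0498). In this contrast 2.11% of all clusters were called, and Irf7 was the only one of the 6 genes tested. The value lay at the threshold and was not called in 15 of 22 alternatives, in which it ran from 1.79 to 2.21. Against mesangial cells the Irf7 effect was larger by 1.93 (SE 0.50, adjusted p = 0.0751), which was not called. Of the 6 genes, 0 were called there by limma, where 1.07% of all clusters were, and Irf7 and Irf9 had an unadjusted p below 0.05 (0.00133 and 0.00805), as did 15.9% of all clusters. The Irf9 effect was larger by 0.82 against mesangial cells (adjusted p = 0.157) and by 0.31 against podocytes (adjusted p = 0.506). A restriction of the Irf9 increase to endothelial cells was therefore not shown.

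Of 25 targets tested, 2 were called in each of these contrasts, where 2.11% and 1.07% of all clusters were. Both times these were Ifit2 and Mx2, which had a larger effect in endothelial cells than in either other cell type. For Ifit2 the difference was 1.93 against podocytes (adjusted p = 0.00157) and 1.88 against mesangial cells (adjusted p = 0.000492), and for Mx2 it was 1.57 and 1.47 (adjusted p = 0.0184 and 0.0162). Mx2 reached a signal of 100 on mutant endothelial arrays only (151 to 232). Against podocytes the count of 2 became 12 without mutant podocyte array A, 3 without wild type mesangial array B or C and 1 without mutant endothelial array A. Against mesangial cells it became 6 without mutant podocyte array A and 4 without mutant podocyte array C. No gene of the 8 was called between podocytes and mesangial cells, where 0.717% of all clusters were, and none had an unadjusted p below 0.05, where 12% of all clusters did. There the largest differences were -0.57 for Irf8 and 0.52 for Irf9 (adjusted p = 0.441 and 0.477).

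Levels in the groups labelled wild type were compared in 1 fit over their 9 arrays, gene by gene, since signals of different probe sets are not on a common scale. If the mesangial animals were heterozygous, as their array names allow, the steps against mesangial cells are not matched in genotype, and cell type and genotype cannot be told apart there. Irf2, at 478 ± 34.8 in mesangial cells, 380.4 ± 31.8 in podocytes and 682 ± 117 in endothelial cells (SD, n = 3), was highest in endothelial cells. It was higher there than in podocytes by 0.83 (adjusted p = 0.000929) and than in mesangial cells by 0.50 (adjusted p = 0.0175). The second of these calls was lost without mesangial array B or endothelial array A or B (adjusted p 0.0534 to 0.0635), and without mesangial array C the difference was 0.56 (adjusted p = 0.0196). The order of the 2 lower cell types was not settled (difference 0.33 in size, adjusted p = 0.0925).

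Irf8 also had its highest mean in endothelial cells, with 60.9 ± 9.0 in mesangial cells, 73.4 ± 4.8 in podocytes and 102 ± 13.0 in endothelial cells. It was higher in endothelial cells than in mesangial cells by 0.75 (adjusted p = 0.00202) and than in podocytes by 0.47 (adjusted p = 0.0185). The step over podocytes lost its call without podocyte array A (adjusted p = 0.0625) and in a fit of all 18 arrays (adjusted p = 0.0816). The step over mesangial cells was 0.85 (adjusted p = 0.000917) without mesangial array C. Endothelial array A alone of the 9 wild type arrays reached a signal of 100. Irf8 was thus tested through the group where it is high, and it could not be tested without that array. Mesangial cells and podocytes did not differ beyond their spread (0.28, adjusted p = 0.143).

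Irf1 measured 113 ± 20.4 in mesangial cells, 92.6 ± 18.0 in podocytes and 152 ± 17.8 in endothelial cells. It was higher in endothelial cells than in podocytes (0.73, adjusted p = 0.00853), as was its second cluster (0.40, adjusted p = 0.0167). The step from mesangial to endothelial cells was called for the second cluster (0.52, adjusted p = 0.00544, and 0.47, adjusted p = 0.0176, without mesangial array C) and not for the first (0.43, adjusted p = 0.0884). The second cluster reached 100 on the endothelial arrays alone of the 9, and with no signal minimum its 2 adjusted p-values were 0.0225 over podocytes and 0.00778 over mesangial cells.

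Irf9 was lowest in podocytes, at 114.5 ± 27.0 against 186 ± 12.1 in mesangial and 172 ± 4.1 in endothelial cells. Both steps were called (-0.73 against mesangial cells, adjusted p = 0.00804, and 0.62 from podocytes to endothelial cells, adjusted p = 0.0128). Without mesangial array C the first was -0.69 (adjusted p = 0.0216). Mesangial and endothelial cells did not differ beyond their spread (-0.11, adjusted p = 0.627).

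Irf7 also had its higher level in mesangial cells, at 164 ± 73.8, against 69.4 ± 17.7 in podocytes and 84.9 ± 3.1 in endothelial cells. The difference between podocytes and mesangial cells was -1.14 (adjusted p = 0.0303), but wild type mesangial array B, at 79.5, lay within the podocyte range of 58.0 to 89.8. Of the 9 arrays only mesangial arrays A and C reached 100, so that Irf7 was tested through the group where it is high, and with no signal minimum the call was lost (adjusted p = 0.0705). The call was lost when mesangial array A or C or podocyte array A or C was left out (adjusted p 0.0801 to 0.0995). Endothelial and mesangial cells differed by -0.82 (adjusted p = 0.0904), and this became -1.28 (adjusted p = 0.00111) without mesangial array B.

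Irf3 had its highest mean in podocytes, as no other tested gene did, at 158 ± 11.3 against 125 ± 1.9 in mesangial and 138 ± 11.0 in endothelial cells. The step over mesangial cells was called (0.33, adjusted p = 0.0251), and it lost the call without mesangial array A or B or podocyte array C (adjusted p 0.0632 to 0.0872). Without mesangial array C it was 0.34 (adjusted p = 0.0475). The step down to endothelial cells was not called (-0.20, adjusted p = 0.125).

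In all, 3 of 6 genes were called between podocytes and mesangial cells, 4 between endothelial cells and podocytes and 2 between endothelial and mesangial cells. Of all clusters 27.9%, 38.8% and 32% were called in these comparisons, shares of the same order as the 3, 4 and 2 of 6. Wild type podocyte arrays held endothelial and mesangial marker signal, as given above, and its part in the podocyte levels was not tested.

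Interferon-stimulated targets were also mostly lower in wild type podocytes than in mesangial cells. Between podocytes and mesangial cells, 17 of 24 targets tested were called lower and 1 higher, where 17% of all clusters were called lower. The largest were Ifit3 (1800 in mesangial cells and 301 in podocytes, difference -2.58), Iigp1 (-2.51), Ifit1 (-2.38), Gbp3 (-2.16) and Rtp4 (-2.04). The 17 ran from 11, without mesangial array A or podocyte array C, to 19, without mesangial array B, and was 12 without mesangial array C. Between endothelial and mesangial cells 10 of 24 were called lower and 0 higher, where 16.1% of all clusters were called lower. Without mesangial array C, 7 were called lower and 4 higher, and without array A 7 and 1. Between endothelial cells and podocytes 9 of 24 were called higher and 0 lower, where 21.9% of all clusters were called higher, among them Ifi44 (2.11) and Iigp1 (1.45).

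The mutant arrays were compared in a fit of their own. For Irf7 and Irf9 the wild type differences between endothelial and mesangial cells had not been called. The differences of the mutation effect between these cell types were not called either (adjusted p = 0.0751 and 0.157, limma). Irf7 was higher in mutant endothelial than in mutant mesangial cells by 1.11 (481 against 239 on average, adjusted p = 0.0279), where the wild type difference had been -0.82. Irf9 was higher by 0.71 (301 against 184, adjusted p = 0.0300), where the wild type difference had been -0.11. Without mutant mesangial array B both calls were lost, with 0.74 for Irf7 (adjusted p = 0.0690) and 0.64 for Irf9 (adjusted p = 0.103), and Irf8 was called higher in endothelial cells (0.57, adjusted p = 0.0328, from 0.27 with it). Against mutant podocytes, mutant endothelial cells had more Irf7 by 2.31 (adjusted p = 0.000310), Irf9 by 0.92 (0.00486), Irf1 by 0.93 (0.0212) and Irf2 by 0.91 (0.00226). Irf2 kept the endothelial maximum of the wild type, at 786 against 430.1 in mesangial cells (0.87, adjusted p = 0.00439, and 0.80, adjusted p = 0.0223, without mesangial array B). Mutant podocytes had more Irf3 than mutant mesangial cells by 0.64 (adjusted p = 0.0151) and less Irf7 (difference -1.20, adjusted p = 0.0180). Without mesangial array B these were 0.67 (adjusted p = 0.0411) and -1.56 (adjusted p = 0.00277). Of all clusters 47.1% were called between mutant endothelial cells and podocytes, 22.8% between mutant endothelial and mesangial cells and 29% between mutant podocytes and mesangial cells.

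Irf4 and Irf5 stayed low in every group. Irf4 signal was 35.8 to 45.6 and Irf5 signal 46.9 to 64.3 over the 18 arrays, against array medians over all clusters of 62.8 to 71.6. Neither reached the minimum of 100, so neither was tested, and no statement on a difference between groups is made at this signal. Their highest group means were 43.2 ± 2.1 for Irf4 and 57.6 ± 5.8 for Irf5, both in mutant podocytes (SD, n = 3).

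Across the 18 arrays the log2 signals of some of the genes ran together, which is given as a description over arrays that share cell types and genotypes. Pearson's r was 0.87 for Irf1 with Irf9, 0.85 for Irf7 with Irf9, 0.81 for Irf1 with Irf2 and 0.73 for Irf1 with Irf7. With these genes r was weakly negative for Irf3, at -0.14 to -0.35. It was -0.52 to -0.62 for Irf4, whose signal stayed low on every array, so no opposite course is read from it. Likeness was sought among 12606 other clusters, a part of the 25254 with a symbol. Of these, the clusters most like Irf7 were Gbp5 (r = 0.93), Stat2 (0.91) and Ddx60 (0.91), all known as interferon-stimulated. Those most like Irf9 were a cluster of the guanylate-binding genes Mpa2l, Gbp8, Gbp10 and Gbp11 (0.94), Rnf213 (0.92) and Znfx1 (0.91). The same cluster led for Irf1 (0.90), followed by the immunoproteasome subunit Psmb10 (0.89) and Tspo (0.89).

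The closest clusters of Irf2 were Zfp46 (r = 0.96), Klhl5 (0.94) and Mapk7 (0.93), and those of Irf3 were Crlf3 (0.89), Plekhg1 (0.89) and Polr2g (0.89). Irf8 had the loosest likeness, to Rnf122 (0.84), Med10 (0.83) and Slc38a1 (0.82).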

How the data were processed

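RNA of 18 sorted samples (RNeasy Micro) was amplified by Ribo-SPIA and hybridized to Mouse Gene 1.0 ST arrays. The series' design text names an exon array and another program, but the files fit the gene array. The authors deposited, for 28856 transcript clusters, a linear intensity from RMA (background correction, quantile normalization and probe summary, per the labels by Expression Console), annotated on mm9. The table's 18 columns of normalized values of the same arrays were not used. RMA compresses low signals, so small changes near background are understated. Column names gave the group, not the sample, so arrays were lettered in column order.

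The log2 of intensity was tested with limma 3.58.1 (R 4.3.3; lmFit, eBayes) in clusters with a signal of at least 100 on at least 1 array of the comparison, with Benjamini-Hochberg adjustment over all clusters tested. The scripts were tested on simulated data. Each genotype comparison used its 6 arrays, wild type cell types 1 fit of 9 arrays and differences of effects all 18. Each of the 8 genes was reported, with the second cluster of Irf1, the 3 clusters most like each of the 6 genes that reached a signal of 100, and at most 5 called genes of a pathway list in a comparison, beside genes not called or taken by the screen alone, which were named after their values were seen. The genes and lists were chosen with earlier results of these data known. P-values measure the spread between these arrays only. The number of arrays, 3 in a group, limits the precision. Alternatives changed the signal minimum, the arrays, the variance model, the scaling, the call rule and the Irf1 cluster. Some items are not reported here.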

Additional observations from a re-analysis of the deposited data

Results flagged for a closer look

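The effect of the mutation on Irf7 was larger in endothelial cells than in podocytes by 1.99 on the log2 scale (limma interaction over 18 arrays, adjusted p = 0.0498), which is why this difference between cell types is set out here. Endothelial Irf7 signal rose from 82.1 to 88.3 on wild type to 440.4 to 522 on mutant arrays. In podocytes it was 58.0 to 89.8 and 78.6 to 132, with overlap. The test lies at its threshold, as adjusted p ran from 0.0148 to 0.113 over 22 alternatives and was above 0.05 in 15 of them, while the difference stayed between 1.79 and 2.21. It was 2.21 (adjusted p = 0.0148) without mutant podocyte array A, which had the highest Irf7 signal and the highest endothelial marker sum of the mutant podocyte arrays. It was 1.93 (adjusted p = 0.110) without mutant endothelial array A, which had the highest leukocyte signal of the endothelial arrays. Over all clusters the median of this contrast was 0.11.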

How the results depend on the processing

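The endothelial Irf7 difference kept its direction and its call in all 13 alternatives run (2.42 to 2.57, adjusted p 1.32e-05 to 0.00401), and that of Irf9 in 10 of 13 (0.67 to 0.90). The number of the genes called in endothelial cells was 2, and 1 to 2 with single arrays left out. In mesangial cells it was 0, and 1 by the screen. Between wild type podocytes and mesangial cells it was 3, and 1 to 4 with arrays left out. Between wild type endothelial and mesangial cells it was 2, 1 with a fold change over 1.5 as well, and 0 to 3 with arrays left out, with 0 when endothelial array A was missing. For the effect in endothelial cells against podocytes it was 1, and 0 without a signal minimum, with a trended and robust variance model, and with quantile normalization, and 0 to 1 with arrays left out. Against mesangial cells it was 0, and 1 with array medians subtracted (adjusted p = 0.0497 for Irf7), and 0 to 1 with arrays left out (adjusted p = 0.0116 without wild type mesangial array B and 0.0423 without mutant mesangial array C).

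Signs turned only for small differences or with mutant in place of wild type arrays. Mesangial Irf9 was 0.031 with quantile normalization, 0.088 without wild type array C and mutant array B (left out after the data were seen), and -0.121 to 0.044 with arrays left out singly. Endothelial Irf3 was -0.016 with quantile normalization and -0.001 to 0.12 with arrays left out. In mutant arrays Irf8 was -0.29 between podocytes and mesangial cells (0.007 without mesangial array B, left out after the data were seen), and Irf7 was 1.11 and Irf9 0.71 between endothelial and mesangial cells. For the effect in podocytes against mesangial cells, leaving out arrays gave -0.15 to 0.38 for Irf1 and -0.42 to 0.40 for Irf7. For the effect in endothelial cells against podocytes it gave -0.11 to 0.42 for Irf1, -0.12 to 0.20 for Irf2 and -0.251 to 0.033 for Irf3, with -0.12 for Irf2 under quantile normalization and 0.002 for Irf3 with medians subtracted. Of the alternatives for single genes in the planned comparisons, 829 kept direction and call, 39 lost a call, 11 gained one and 26 turned. The causes were not tested.

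Counts over all clusters moved more. In mesangial cells 335 were called (50 to 304 with arrays left out, 258 to 729 otherwise), in podocytes 7 (0 to 344 and 0 to 837) and in endothelial cells 146 (49 to 253 and 83 to 271). For the effects they were 97 (44 to 423 and 76 to 143) in podocytes against mesangial cells, 285 (30 to 1865 and 78 to 970) in endothelial cells against podocytes and 145 (85 to 251 and 110 to 262) in endothelial against mesangial cells. Endothelial targets called, 16, ran from 8 to 18 under the other settings. No paired analysis was possible because the groups share no replicate numbers. Signals below or near the array medians limit what can be seen, as for Irf4, Irf5 and, on most mesangial and podocyte arrays, Irf8.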
